A study of Homo sapiens with 4 samples.

Results

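The genes of the actin cytoskeleton were described in 4 RNA libraries of the human melanoma line A375, which carries an activating BRAF mutation. They were chosen by name, with earlier results of these data known. They are 39 rows of the deposited table and include actins, alpha-actinins, actin-related proteins and subunits of the Arp2/3 complex. The rest are proteins that bind actin filaments or link them to membranes and signalling. The table held 2864 genes with values, and all 39 genes were among them. Of the 39, 35 reached a level of 1 TPM, a count corrected for gene length and library size, in some library. ACTA1, ACTC1, ACTG2 and ACTN3 stayed under that level in all 4 libraries.

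Actin is the protein of the thin filaments that give a cell its shape, pull on its attachments and push its front edge forward. Filaments start from nucleators such as the Arp2/3 complex, which grows branches from existing filaments, and they are bundled by cross-linkers such as the alpha-actinins and tied to membranes by linkers such as the adducins. When filaments take up monomeric actin, the coactivators of serum response factor are released into the nucleus, and many actin and actin-binding genes are known targets of that factor.

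A375P were parental A375 cells without treatment. A375R were a vemurafenib-resistant strain raised from A375 with stepwise increased concentrations of vemurafenib, an inhibitor of the BRAF kinase, and kept in the drug, at a final concentration that the labels do not give. A375+DMSO cells received the solvent DMSO at 1‰ for 48 h, and A375+VEM cells received 2 μM vemurafenib for 48 h. All were grown in the same serum-containing medium and carry the same batch label. The study paired A375R with A375P for persistent resistance and A375+VEM with A375+DMSO for the acute response to the drug. Each condition is represented by 1 library, so differences between libraries have no replicates behind them and are given without p-values. RNA came from whole cultures, so fewer cells with a transcript and less of it per cell cannot be told apart.

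The table covers the alphabetical beginning of the gene list, over which the counts summed to between 1891215 and 2054277 per library, which is not the depth. The 39 genes held between 145051 and 193916 of these counts per library. In TPM each count is divided by the length of its gene and brought to the same library total, so levels in TPM can be compared between genes as well as between libraries. Libraries were compared by the ratio of (TPM + 0.1), over genes that reached 1 TPM in either of the compared libraries, with 1.5-fold in either direction as the threshold. Log2 ratios are on that scale. Folds are ratios of TPM without the 0.1, with exact Clopper-Pearson intervals at 95% on the reads, which cover counting error only and compare libraries, not conditions. A375P stood apart from the other library without vemurafenib: 45.7% of 1720 genes were past 1.5-fold between A375+DMSO and A375P, against 20.5% of 1702 between A375R and A375+DMSO. A375R and A375+VEM are therefore also compared with the other of these libraries. The melanocytic markers that would check the cell type were not analysed here, since 0 of 8 fell in the table.

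Together the 39 genes made up 0.738% of all TPM in A375P, 0.872% in A375+DMSO, 0.972% in A375R and 0.718% in A375+VEM. Actin transcripts and alpha-actinins supplied most of that sum, so it followed them. In A375R against A375P, 18 of the 35 genes were past 1.5-fold, 12 higher and 6 lower, where 44.3% of all 1689 genes compared were past it, 26.8% higher and 17.5% lower. Their median log2 ratio was 0.34, beside 0.10 over all genes. In A375+VEM against A375+DMSO, 14 of the 35 were past 1.5-fold, 5 higher and 9 lower, where the share over 1784 genes was 46.2%, with 26.5% higher and 19.7% lower. Here the median log2 ratio was -0.15, beside 0.11 over all genes. At 2-fold 15 of the 35 were past the threshold in the resistant pair, 10 higher and 5 lower, beside 22.2% of all genes with 14.7% higher and 7.52% lower. In the acute pair 9 were past 2-fold, 3 higher and 6 lower, beside 26.4% of all genes with 15.3% higher and 11.1% lower. The share of the 35 genes past it in either direction was thus near the background in the acute pair at either threshold, and in the resistant pair it was nearer to it at 1.5-fold than at 2-fold. In the resistant strain ACTN1, ACTN4, ARPC1B, ABLIM3, AFAP1, AFAP1L1, AFAP1L2, ADD2, ADD3, ABI2, BAIAP2L1 and BIN1 were higher than in A375P, and ACTA2, ACTN2, ACTR3B, ABLIM1, AVIL and ABL2 were lower. After 48 h of vemurafenib ACTR3B, ARPC1B, ADD1, ADD3 and AVIL were higher than with DMSO, and ACTB, ACTG1, ACTN1, ACTN2, ABLIM1, AFAP1, ADD2, ABI2 and BAIAP2L1 were lower.

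**Figure D1:**
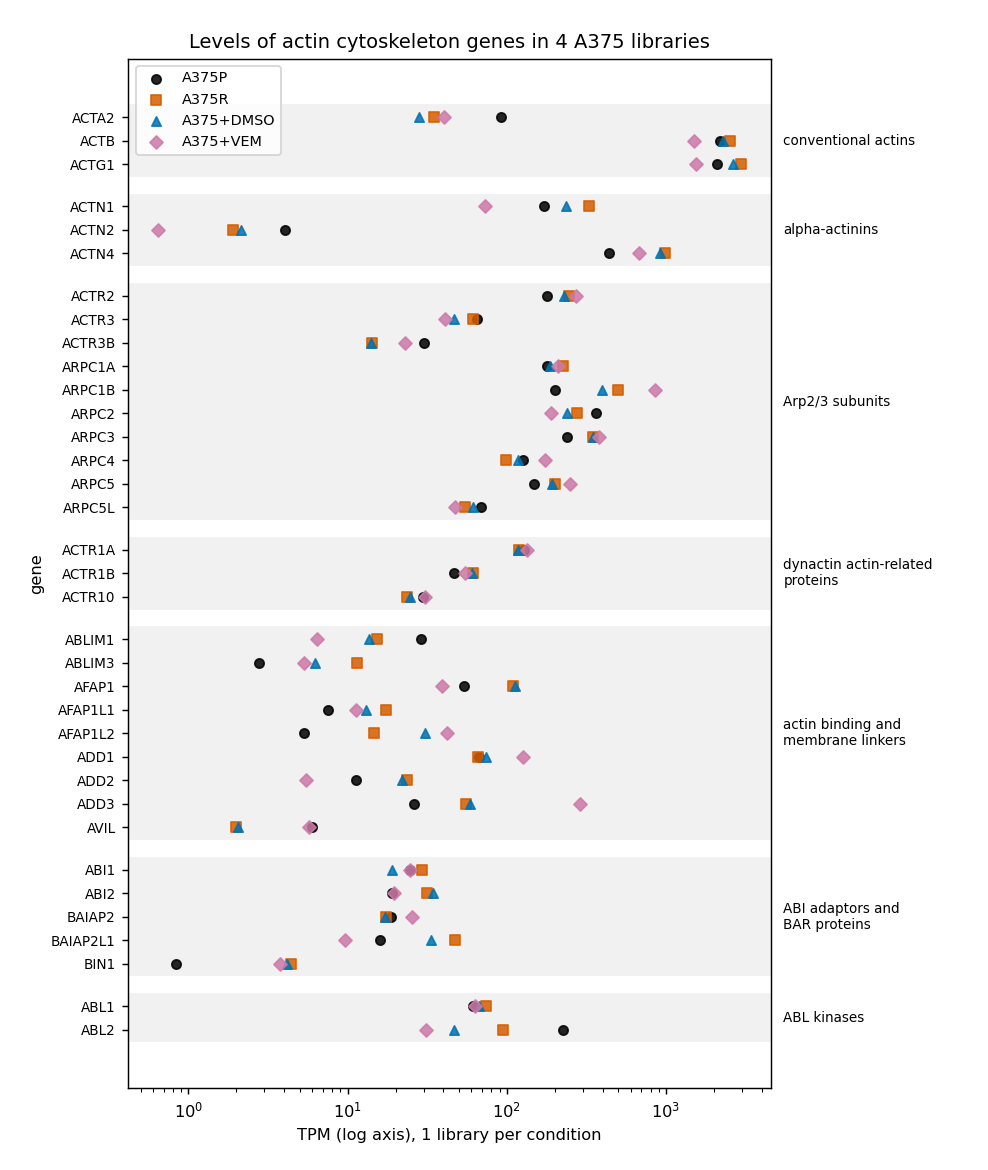
Level of each of the 35 genes that reached 1 TPM, on a log axis in TPM, with 1 point per library and genes grouped by role. Levels run from 0.640 for ACTN2 in A375+VEM to 2980.4 for ACTG1 in A375R, and the points of the dynactin actin-related proteins nearly coincide while those of ADD3, ABL2 and AFAP1L2 are spread widely.

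**Figure D2:**
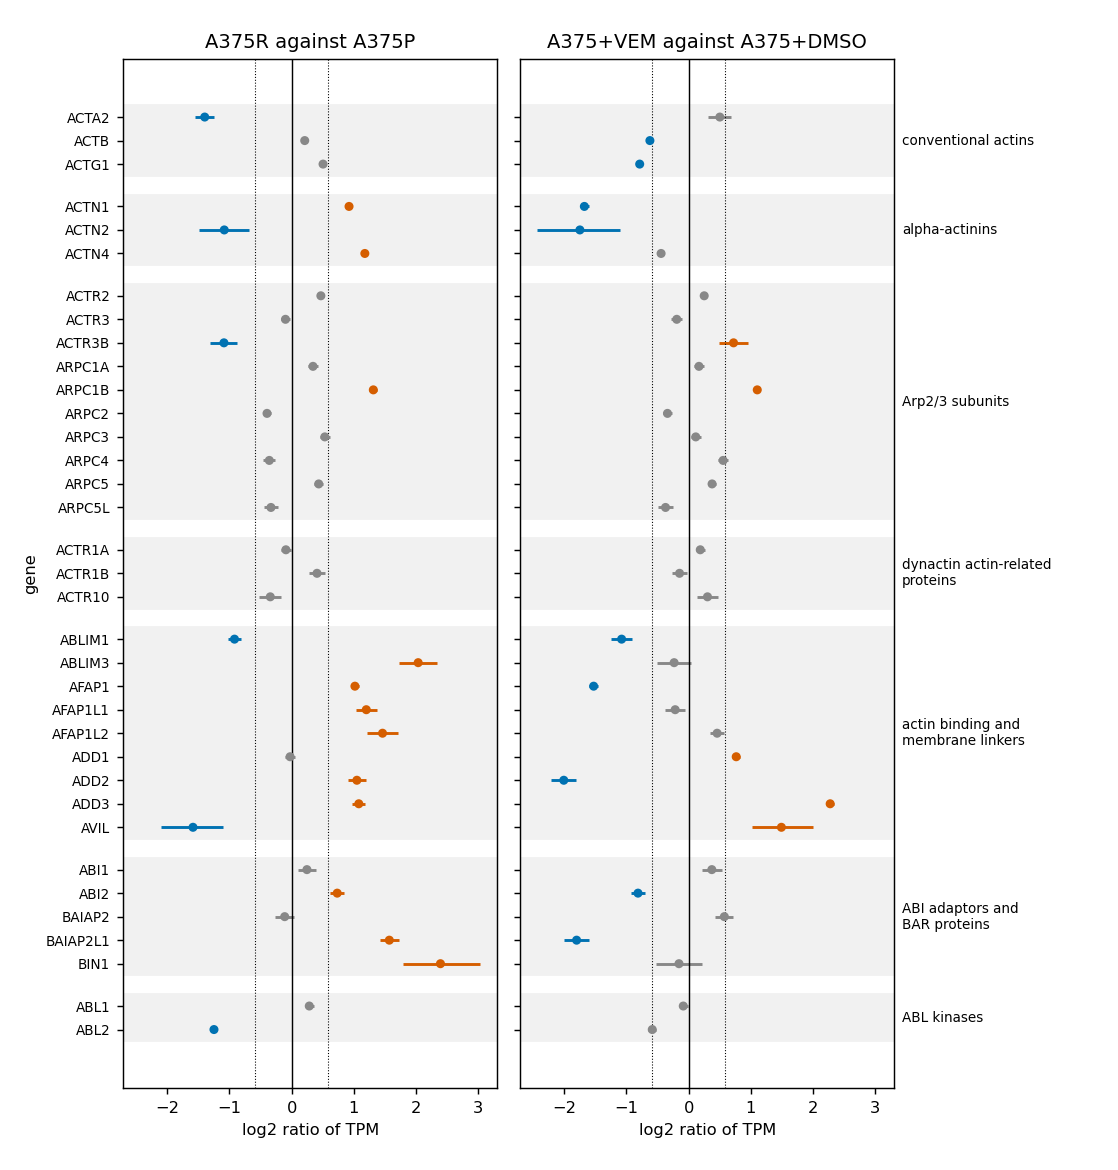
Log2 ratio of TPM for the same genes in A375R against A375P (left) and A375+VEM against A375+DMSO (right), with bars for the 95% interval from counting error and dotted lines at 1.5-fold. Orange points are genes higher by the rule, blue points are lower and grey points are within 1.5-fold. ACTN1, AFAP1, ADD2 and BAIAP2L1 are orange on the left and blue on the right.

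Cytoplasmic actins were the most abundant transcripts of the set and were lowest after acute vemurafenib. ACTB, which encodes beta-actin (chr7:5566779-5570232, minus strand, hg19), had a TPM of 2196 in A375P and 2296 in A375+DMSO, and 2542 in A375R and 1491 in A375+VEM. Its level differed little among the 3 libraries other than A375+VEM. In A375+VEM it was 1.54-fold lower (95% interval 1.51 to 1.57) than in A375+DMSO and 1.47-fold lower (95% interval 1.45 to 1.5) than in A375P, so the threshold was passed against only the first of these. ACTG1, which encodes gamma-actin (chr17:79476997-79479892, minus strand), had 2099 in A375P and 2646 in A375+DMSO, and 2980.4 in A375R and 1534 in A375+VEM. It was 1.73-fold lower (95% interval 1.7 to 1.75) in A375+VEM than in A375+DMSO and 1.37-fold lower (95% interval 1.35 to 1.39) than in A375P. In A375R it was 1.42-fold higher (95% interval 1.4 to 1.44) than in A375P and 1.13-fold higher (95% interval 1.11 to 1.14) than in A375+DMSO, both within the threshold. The ratio of ACTG1 to ACTB stayed close to 1, at 0.956 in A375P and 1.15 in A375+DMSO, and 1.17 in A375R and 1.03 in A375+VEM, so both cytoplasmic actins were lower together in A375+VEM.

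The muscle actins behaved differently. ACTA2, the alpha-actin of smooth muscle and of contractile fibroblasts (chr10:90694831-90751154, minus strand), had a TPM of 92.2 in A375P and 28.3 in A375+DMSO, and 35 in A375R and 40.1 in A375+VEM. It was highest in A375P, 2.64-fold lower (95% interval 2.38 to 2.92) in A375R and 3.26-fold lower (95% interval 2.92 to 3.64) in A375+DMSO, so the difference separated A375P from the other 3 libraries and not the drug-exposed from the unexposed. A375R was 1.24-fold higher (95% interval 1.08 to 1.41) than A375+DMSO in this gene, and A375+VEM was 1.42-fold higher (95% interval 1.25 to 1.61) than A375+DMSO. ACTA2 overlaps the antisense RNA ACTA2-AS1 on the other strand, with 74 reads in A375P, 29 in A375+DMSO, 16 in A375R and 37 in A375+VEM. Reads in the shared part cannot be assigned if counting ignored strand, which the sources used here do not state.

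The other 3 muscle actins were near the limit of detection. Read counts of skeletal ACTA1 were 4 in A375P and 1 in A375+DMSO, and 2 in A375R and 7 in A375+VEM. Those of cardiac ACTC1 were 1 in A375P and 0 in A375+DMSO, and 0 in A375R and 24 in A375+VEM. Those of enteric ACTG2 were 3 in A375P and 2 in A375+DMSO, and 0 in A375R and 9 in A375+VEM. Each was highest in A375+VEM. With A375+DMSO set to a floor of 3 reads in place of 0, the ACTC1 level of A375+VEM was 8.06-fold higher than that floor. The exact 95% lower limit of the ratio of A375+VEM to A375+DMSO, from 24 reads against 0, was 6.06. In TPM none of them exceeded 0.852, the level of ACTG2 in A375+VEM, against 1491 for ACTB in the same library. Reads of near-identical actin copies can be misassigned. The 16 actin pseudogenes in the table held 0.549% of the reads of ACTB and ACTG1 in A375P, 0.348% in A375+DMSO, 0.260% in A375R and 0.709% in A375+VEM. ACTBP8 held 174 reads in A375P and 40 to 98 in the other libraries, ACTG1P20 held 53 to 90, and the rest held at most 46 each. The actin-like gene ACTBL2 had 1 read in A375P and 8 to 20 in the other libraries.

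Many actin promoters are known to carry the CArG box, the sequence bound by serum response factor. Promoters were read from RefSeq (GRCh38.p14), as the 250 bases before and 50 bases from each start site, and 35 of the 39 genes matched with 58 promoters, while ACTB, ACTN3, ACTR10 and ARPC1B had no entry. The box was searched on both strands. It was found in 5 of the 58 promoters, those of ACTA1, ACTC1, ACTG1, ACTG2 and ACTN1, against 1.29% of 35116 promoters of the same length. These windows are shown because 4 actins and 1 alpha-actinin share the motif while their levels differ by orders of magnitude. Each is given 5′ to 3′ on the strand of the gene with the box in capitals and 20 bases to either side, at GRCh38.p14 positions that do not match the hg19 positions of the table.
ACTG1 (chr17:81512864-81512913, minus strand): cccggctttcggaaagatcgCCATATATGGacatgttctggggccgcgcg
ACTN1 (chr14:68977708-68977757, minus strand): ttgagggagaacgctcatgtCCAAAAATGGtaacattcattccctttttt
ACTA1 (chr1:229434162-229434211, minus strand): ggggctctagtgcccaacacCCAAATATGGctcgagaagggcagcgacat
ACTC1 (chr15:34795629-34795678, minus strand): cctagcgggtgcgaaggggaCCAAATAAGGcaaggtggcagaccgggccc
ACTG2 (chr2:73892878-73892927, plus strand): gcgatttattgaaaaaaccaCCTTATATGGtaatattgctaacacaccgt
ACTG2 (chr2:73892915-73892964, plus strand): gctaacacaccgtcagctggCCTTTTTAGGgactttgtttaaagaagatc
The box of ACTG1 begins at base -94 relative to its start site and that of ACTN1 at base -171. The windows of ACTG2 overlap, with boxes that begin at bases -110 and -73. Of the genes with a box, ACTG1 and ACTN1 were lower in A375+VEM than in A375+DMSO. ACTA1, ACTC1 and ACTG2 stayed under 1 TPM and so were not compared by the rule. Their reads were more in A375+VEM than in A375+DMSO, at 7 against 1, 24 against 0 and 9 against 2. The intervals of ACTA1 and ACTG2 include 1, and the lower limit of ACTC1 was 6.06. A match describes the letters of the window and does not show that a factor bound there.

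Alpha-actinins bundle actin filaments and anchor them at adhesions, and here ACTN1 and ACTN4 were past 1.5-fold higher in A375R than in A375P, and ACTN1 was lower after acute vemurafenib. Summed over the group the TPM came to 613 in A375P and 1160.0 in A375+DMSO, and 1317 in A375R and 754 in A375+VEM. ACTN1 (chr14:69340840-69446083, minus strand) had 172 in A375P and 234.5 in A375+DMSO, and 326 in A375R and 73.3 in A375+VEM. The resistant strain was highest and the acutely treated library lowest. ACTN1 was 1.9-fold higher (95% interval 1.84 to 1.96) in A375R than in A375P and 1.39-fold higher (95% interval 1.35 to 1.43) than in A375+DMSO, the latter within 1.5-fold. In A375+VEM it was 3.2-fold lower (95% interval 3.05 to 3.36) than in A375+DMSO and 2.34-fold lower (95% interval 2.23 to 2.46) than in A375P. Its lower level with acute drug therefore held against both controls.

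ACTN4, the other non-muscle alpha-actinin (chr19:39138256-39221172, plus strand), had a TPM of 437 in A375P and 923 in A375+DMSO, and 988 in A375R and 679 in A375+VEM. It was 2.26-fold higher (95% interval 2.22 to 2.31) in A375R and 2.11-fold higher (95% interval 2.07 to 2.15) in A375+DMSO than in A375P, so A375R and A375+DMSO were nearly alike, at a ratio of 1.07-fold. ACTN4 of A375+VEM was 1.36-fold lower (95% interval 1.34 to 1.38) than in A375+DMSO but 1.56-fold higher (95% interval 1.52 to 1.59) than in A375P. ACTN1 and ACTN4 thus differed in A375+VEM, where ACTN1 lay below both controls and ACTN4 between them. The ratio of ACTN4 to ACTN1 was 2.54 in A375P and 3.94 in A375+DMSO, and 3.03 in A375R and 9.26 in A375+VEM. The muscle forms were rare. ACTN2 had a TPM of 4.02 in A375P and 2.15 in A375+DMSO, and 1.89 in A375R and 0.64 in A375+VEM, from 26 reads in A375+VEM to 176 in A375P. Against A375P it was 2.12-fold lower (95% interval 1.61 to 2.82) in A375R and 1.87-fold lower (95% interval 1.44 to 2.44) in A375+DMSO. Acute drug went with a level 3.36-fold lower (95% interval 2.15 to 5.43) than in A375+DMSO, with the wide interval of a low count. Read counts of ACTN3 were 7 in A375P and 4 in A375+DMSO, and 4 in A375R and 10 in A375+VEM, too few to compare.

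The Arp2/3 complex nucleates branched filaments and was the group with the largest number of genes. The TPM of all subunits came to 1601 in A375P and 1831 in A375+DMSO, and 2027 in A375R and 2432 in A375+VEM. In A375R against A375P, 8 of its 10 genes were within 1.5-fold, where 44.3% of all genes were past it. In A375+VEM against A375+DMSO it was again 8 of 10, where 46.2% of all genes were past it. In both pairs the exceptions among the subunits were ARPC1B and ACTR3B, both of which have a close paralogue in the complex.

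ARPC1B (chr7:98972298-98992424, plus strand) is the form of the ARPC1 subunit known for its role in blood cells, and it had a TPM of 201 in A375P and 394 in A375+DMSO, and 501 in A375R and 848 in A375+VEM. It was lowest in A375P and highest in A375+VEM. The level was 2.49-fold higher (95% interval 2.38 to 2.6) in A375R and 1.96-fold higher (95% interval 1.87 to 2.05) in A375+DMSO than in A375P, and A375R was 1.27-fold higher (95% interval 1.22 to 1.32) than A375+DMSO. In A375+VEM it was 2.15-fold higher (95% interval 2.08 to 2.23) than in A375+DMSO and 4.21-fold higher (95% interval 4.04 to 4.4) than in A375P. ARPC1A, its paralogue in the adjacent position (chr7:98923496-98963885, plus strand), had 178 in A375P and 187 in A375+DMSO, and 225 in A375R and 210.4 in A375+VEM, and it was within 1.5-fold in each comparison. The ratio of ARPC1B to ARPC1A accordingly was 1.13 in A375P and 2.1 in A375+DMSO, and 2.22 in A375R and 4.03 in A375+VEM. ARPC1B was the most abundant Arp2/3 transcript in A375R, A375+DMSO and A375+VEM, and ARPC2 was in A375P. In GENCODE 72.3% of the 50-base stretches of the ARPC1B transcript, and 76.0% of those of ARPC1A, also occur in another gene, mostly in the readthrough gene AC004922.1 that joins the neighbours, and how such reads were counted is not given in the sources used here.

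ACTR3B is a paralogue of ACTR3, the Arp3 subunit, and had a TPM of 30.4 in A375P and 13.9 in A375+DMSO, and 14.3 in A375R and 23 in A375+VEM. Its order was unlike that of ARPC1B, with A375P highest and A375R and A375+DMSO alike and low. It was 2.13-fold lower (95% interval 1.83 to 2.48) in A375R than in A375P and 2.18-fold lower (95% interval 1.87 to 2.54) in A375+DMSO. A375+VEM was 1.65-fold higher (95% interval 1.41 to 1.94) than A375+DMSO and 1.32-fold lower (95% interval 1.16 to 1.5) than A375P. ACTR3 itself had 65.2 in A375P and 46.6 in A375+DMSO, and 60.9 in A375R and 40.8 in A375+VEM, which was 1.6-fold lower (95% interval 1.51 to 1.69) in A375+VEM than in A375P. ACTR2, the Arp2 subunit, had 178 in A375P and 229 in A375+DMSO, and 246 in A375R and 272 in A375+VEM, and A375+VEM was 1.53-fold higher (95% interval 1.48 to 1.58) than A375P. The Arp2 and Arp3 genes were thus on opposite sides of A375P in A375+VEM. Against A375+DMSO, ACTR2 of A375+VEM was 1.19-fold higher and ACTR3 1.14-fold lower, both within 1.5-fold. In GENCODE 24.5% of the 50-base stretches of ACTR3B also occur in another gene, mostly in ACTR3C, which had 0 to 4 reads.

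The remaining subunits hold the complex together and contact the mother filament. ARPC2 had a TPM of 366 in A375P and 240.1 in A375+DMSO, and 278 in A375R and 189.7 in A375+VEM, lowest in A375+VEM, where it was 1.93-fold lower (95% interval 1.84 to 2.03) than in A375P and 1.27-fold lower (95% interval 1.2 to 1.34) than in A375+DMSO. ARPC3 had 240.2 in A375P and 348 in A375+DMSO, and 348 in A375R and 377 in A375+VEM. ARPC5 had 148 in A375P and 193 in A375+DMSO, and 200.4 in A375R and 251 in A375+VEM. Both were lowest in A375P and highest in A375+VEM. ARPC3 and ARPC5 were past 1.5-fold only in A375+VEM against A375P, by 1.57-fold and 1.69-fold. ARPC5L, the paralogue of ARPC5, had 68.5 in A375P and 61.4 in A375+DMSO, and 54.4 in A375R and 47.5 in A375+VEM, and its share of the summed ARPC5 and ARPC5L level was 31.6% in A375P and 24.1% in A375+DMSO, and 21.3% in A375R and 15.9% in A375+VEM. ARPC4 had 126 in A375P and 118 in A375+DMSO, and 98.4 in A375R and 173 in A375+VEM, and in A375+VEM it was 1.47-fold higher (95% interval 1.39 to 1.56) than in A375+DMSO, just within the threshold. The readthrough gene ARPC4-TTLL3 lies over it on the same strand with 547, 479, 583 and 1310 reads in A375P, A375R, A375+DMSO and A375+VEM, and with these reads added the ratio was 1.58, past the threshold. Between the most and the least abundant Arp2/3 transcript the ratio of TPM was 12.0 in A375P, 28.3 in A375+DMSO, 35.1 in A375R and 36.9 in A375+VEM.

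The actin-related proteins of dynactin form the short filament of the adaptor that couples dynein to its cargo, so they resemble actin without belonging to its filaments. None of the 3 passed 1.5-fold in any of the 5 comparisons made, where between 20.5% and 62.1% of all genes did. ACTR1A had a TPM of 128 in A375P and 117 in A375+DMSO, and 119.9 in A375R and 134 in A375+VEM. ACTR1B had 46.5 in A375P and 60.2 in A375+DMSO, and 61.7 in A375R and 54.4 in A375+VEM. ACTR10, which caps the end of that filament, had 29.9 in A375P and 24.7 in A375+DMSO, and 23.5 in A375R and 30.5 in A375+VEM. Their summed TPM, 204 in A375P and 202 in A375+DMSO, and 205 in A375R and 219 in A375+VEM, was the steadiest of the 7 groups.

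Linkers join actin filaments to membranes and signalling proteins. Of 9 such genes, 6 were higher and 2 lower in A375R than in A375P, with a median log2 ratio of 1.04, where 26.8% of all genes were higher and 17.5% lower. In A375+VEM against A375+DMSO 3 were higher and 3 lower, with a median of -0.21, beside 26.5% and 19.7% of all genes. In A375+DMSO against A375P, which shares its control library with the first of these, 6 were higher and 2 lower, beside 26.8% and 18.9%.

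Adducins cap the fast-growing ends of filaments and join them to spectrin under the membrane. ADD3 (chr10:111756108-111895323, plus strand) had the highest ratio of the 35 genes after acute drug. The level of ADD3 in TPM stood at 26 in A375P and 59 in A375+DMSO, and 55.1 in A375R and 286 in A375+VEM. A375+VEM was 4.85-fold higher (95% interval 4.64 to 5.07) than A375+DMSO and 11-fold higher (95% interval 10.3 to 11.7) than A375P, with 11277 reads in A375+VEM. A375R was 2.12-fold higher (95% interval 1.97 to 2.28) than A375P but 1.07-fold lower (95% interval 1.01 to 1.14) than A375+DMSO, so its level in the resistant strain stayed near that of the solvent control. The antisense RNA ADD3-AS1, which overlaps ADD3, had 0 reads in A375P, 2 in A375+DMSO, 1 in A375R and 32 in A375+VEM.

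ADD1, the ubiquitous adducin, had a TPM of 66.7 in A375P and 74 in A375+DMSO, and 65.5 in A375R and 126 in A375+VEM, and it was 1.7-fold higher (95% interval 1.63 to 1.78) in A375+VEM than in A375+DMSO. ADD2, the adducin known from red cells and brain, went the other way with 11.3 in A375P and 22.1 in A375+DMSO, and 23.5 in A375R and 5.49 in A375+VEM. It was 4.02-fold lower (95% interval 3.51 to 4.63) in A375+VEM than in A375+DMSO and 2.06-fold lower (95% interval 1.78 to 2.4) than in A375P. A375R was 2.07-fold higher (95% interval 1.87 to 2.29) than A375P and differed from A375+DMSO by 1.06-fold (95% interval 0.975 to 1.16). The adducin transcripts of A375+VEM were therefore mostly ADD3, which held 25% in A375P and 38.1% in A375+DMSO, and 38.2% in A375R and 68.6% in A375+VEM of the summed TPM of the adducins. ADD2 held 10.9% in A375P and 14.2% in A375+DMSO, and 16.3% in A375R and 1.31% in A375+VEM.

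ADD3 had the letters GGAATG, the core of the motif bound by TEAD factors, at more than 1 place in a promoter window, here read as the reverse complement CATTCC. Searched on both strands, GGAATG occurred in 7 of the 58 promoters, in ACTA1, ACTA2, ACTC1, ACTN1, ADD3, BAIAP2 and BAIAP2L1, and in 14.0% of all 35116, so its share was near the background. The windows of ADD3 are shown because this gene had the highest ratio of the 35 in A375+VEM against A375+DMSO, with the motif in capitals.
ADD3 (chr10:110005724-110005769, plus strand): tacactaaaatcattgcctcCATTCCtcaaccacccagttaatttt
ADD3 (chr10:110005855-110005900, plus strand): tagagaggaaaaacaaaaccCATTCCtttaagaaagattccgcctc
The motifs begin at bases -203 and -72 relative to the start site. Of the other compared genes with these letters, BAIAP2L1 and ACTN1 were lower in A375+VEM than in A375+DMSO, and BAIAP2 and ACTA2 were 1.49-fold and 1.42-fold higher, within the threshold.

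AFAP proteins are adaptors that bind actin filaments and Src family kinases. AFAP1 (chr4:7760440-7941653, minus strand) had a TPM of 54 in A375P and 113 in A375+DMSO, and 109 in A375R and 39.1 in A375+VEM. A375R and A375+DMSO were alike and high. The level was 2.03-fold higher (95% interval 1.94 to 2.11) in A375R than in A375P, and in A375+VEM it was 2.88-fold lower (95% interval 2.75 to 3.02) than in A375+DMSO and 1.38-fold lower (95% interval 1.31 to 1.45) than in A375P. AFAP1-AS1, an antisense RNA over AFAP1, had 199, 316, 358 and 103 reads in A375P, A375R, A375+DMSO and A375+VEM. AFAP1L1 had 7.55 in A375P and 13.1 in A375+DMSO, and 17.4 in A375R and 11.2 in A375+VEM, and it was 2.3-fold higher (95% interval 2.04 to 2.6) in A375R than in A375P. AFAP1L2, also known as XB130, had 5.33 in A375P and 30.8 in A375+DMSO, and 14.7 in A375R and 42.4 in A375+VEM, lowest in A375P and highest in A375+VEM. It was 7.94-fold higher (95% interval 6.82 to 9.29) in A375+VEM than in A375P but 1.37-fold higher (95% interval 1.27 to 1.49) than in A375+DMSO. A375R was 2.76-fold higher (95% interval 2.32 to 3.28) than A375P and 2.1-fold lower (95% interval 1.88 to 2.34) than A375+DMSO, a gene whose direction in A375R depended on the control. Of the summed TPM of the AFAP family, AFAP1L2 held 7.97% in A375P and 19.7% in A375+DMSO, and 10.4% in A375R and 45.7% in A375+VEM.

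The actin-binding LIM proteins split. ABLIM1 had a TPM of 28.8 in A375P and 13.5 in A375+DMSO, and 15.2 in A375R and 6.42 in A375+VEM, and it was highest in A375P. It was 1.89-fold lower (95% interval 1.75 to 2.04) in A375R than in A375P, 2.11-fold lower (95% interval 1.88 to 2.37) in A375+VEM than in A375+DMSO and 4.49-fold lower (95% interval 4.05 to 4.98) in A375+VEM than in A375P. ABLIM3 had 2.79 in A375P and 6.21 in A375+DMSO, and 11.4 in A375R and 5.28 in A375+VEM, and it was highest in A375R. There it was 4.1-fold higher (95% interval 3.33 to 5.08) than in A375P and 1.84-fold higher (95% interval 1.57 to 2.17) than in A375+DMSO, so it was past 1.5-fold against both libraries. In A375+VEM ABLIM3 was 1.17-fold lower (95% interval 0.97 to 1.42) than in A375+DMSO, an interval that includes 1. AVIL, which encodes advillin of the villin and gelsolin family, had 5.96 in A375P and 2.05 in A375+DMSO, and 1.98 in A375R and 5.76 in A375+VEM, at 46 to 153 reads. Its levels formed 2 pairs, A375P with A375+VEM and A375R with A375+DMSO. It was 3.0-fold lower (95% interval 2.15 to 4.27) in A375R than in A375P and 2.82-fold higher (95% interval 2.02 to 3.99) in A375+VEM than in A375+DMSO.

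**Figure D3:**
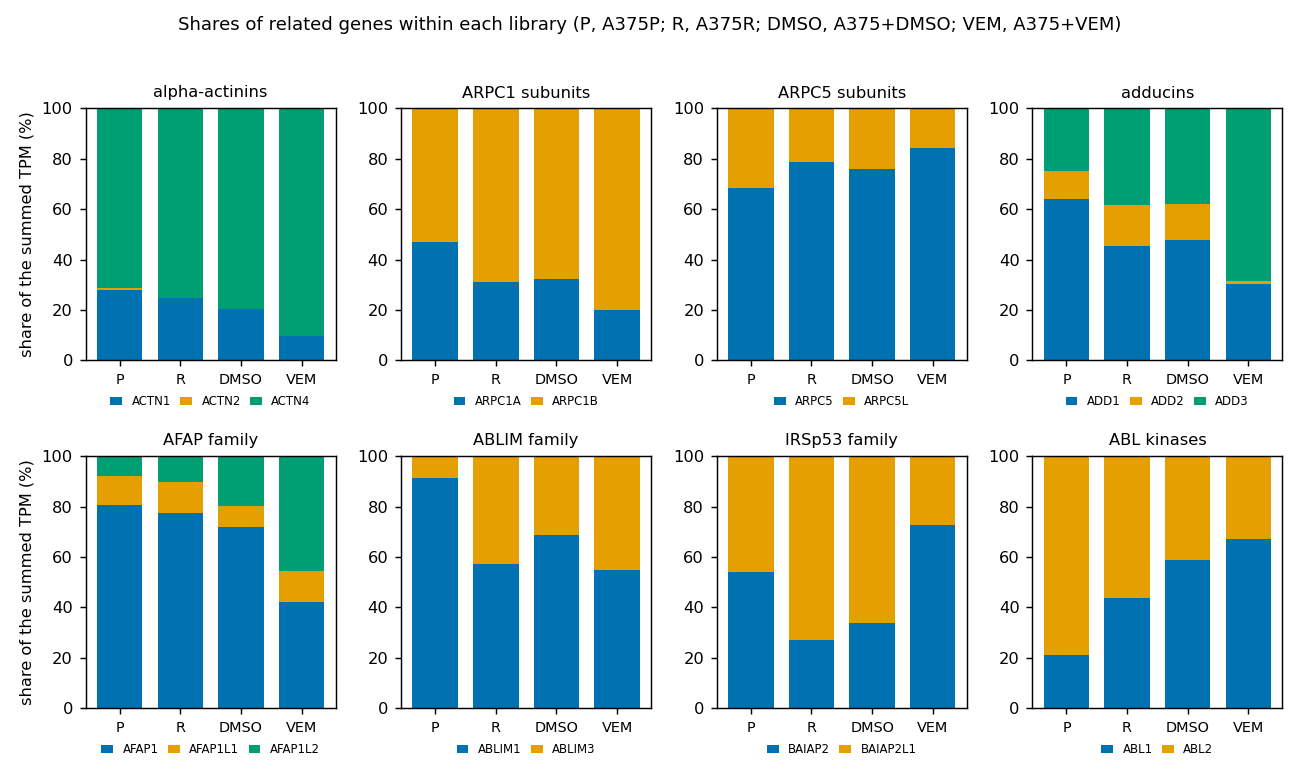
Share of each gene in the summed TPM of its family within a library, in percent, for 8 families, with 1 bar per library. ADD3 takes 68.6% of the adducin TPM in A375+VEM and 25.0% in A375P, ARPC1B takes 80.1% of the ARPC1 TPM in A375+VEM, and the ABL2 share of the ABL kinases is 78.7% in A375P and 33.1% in A375+VEM.

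Adaptors of the ABI family belong to the WAVE complex, which switches on Arp2/3, and BAR proteins bend the membrane that actin pushes. ABI1 had a TPM of 24.7 in A375P and 19.1 in A375+DMSO, and 29.3 in A375R and 24.7 in A375+VEM, and it differed past 1.5-fold only between A375R and A375+DMSO, where A375R was 1.54-fold higher (95% interval 1.38 to 1.71). ABI2 had 18.9 in A375P and 34.3 in A375+DMSO, and 31.5 in A375R and 19.5 in A375+VEM. It was 1.66-fold higher (95% interval 1.54 to 1.79) in A375R than in A375P and 1.76-fold lower (95% interval 1.63 to 1.9) in A375+VEM than in A375+DMSO, while A375+VEM and A375P were alike. ABI2 therefore held 43.4% in A375P and 64.3% in A375+DMSO, and 51.8% in A375R and 44.1% in A375+VEM of the summed ABI1 and ABI2 TPM. In GENCODE 39.7% of the 50-base stretches of the longest coding ABI2 transcript occur in another gene, mostly the neighbour RAPH1. That transcript has 22209 bases, against a length of 6927 for the counted ABI2, so the share may not hold for the counted gene.

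BAIAP2, known as IRSp53, had a TPM of 18.8 in A375P and 17.1 in A375+DMSO, and 17.4 in A375R and 25.5 in A375+VEM, and in A375+VEM it was 1.49-fold higher (95% interval 1.35 to 1.65) than in A375+DMSO, just within the threshold. BAIAP2L1, the paralogue of BAIAP2 known as IRTKS (chr7:97920962-98030427, minus strand), had a TPM of 15.9 in A375P and 33.5 in A375+DMSO, and 47.2 in A375R and 9.61 in A375+VEM. It was highest in A375R and lowest in A375+VEM. BAIAP2L1 was 2.97-fold higher (95% interval 2.68 to 3.3) in A375R than in A375P and 1.41-fold higher (95% interval 1.3 to 1.53) than in A375+DMSO. In A375+VEM it was 3.49-fold lower (95% interval 3.05 to 4.0) than in A375+DMSO and 1.65-fold lower (95% interval 1.42 to 1.92) than in A375P. The BAIAP2L1 share of both paralogues was 45.8% in A375P and 66.2% in A375+DMSO, and 73.1% in A375R and 27.3% in A375+VEM. BRI3, transcribed in the opposite direction, shares 1314 bases with the end of BAIAP2L1. Its read counts were 3091 for A375P, 946 for A375R, 872 for A375+DMSO and 773 for A375+VEM. A375P was highest for BRI3 but not for BAIAP2L1, while the other libraries ranked alike for both genes. Whether BRI3 reads entered the BAIAP2L1 count was not tested. BIN1, an amphiphysin-related BAR protein, had 0.836 in A375P and 4.16 in A375+DMSO, and 4.39 in A375R and 3.74 in A375+VEM. Only A375P was low, with 28 reads, so BIN1 was 5.26-fold higher (95% interval 3.48 to 8.21) in A375R and 4.98-fold higher (95% interval 3.29 to 7.78) in A375+DMSO, and A375R and A375+DMSO differed by 1.06-fold (95% interval 0.824 to 1.36).

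ABL kinases phosphorylate ABI proteins and other regulators of actin, and ABL2 binds filaments itself. ABL1 had a TPM of 61 in A375P and 66.7 in A375+DMSO, and 74.3 in A375R and 62.9 in A375+VEM, and it stayed within 1.5-fold in each comparison. ABL2 (chr1:179068462-179198819, minus strand) had 226 in A375P and 46.5 in A375+DMSO, and 95 in A375R and 31 in A375+VEM. The libraries were clearly ordered, with A375P highest and A375+VEM lowest. ABL2 was 2.38-fold lower (95% interval 2.32 to 2.44) in A375R and 4.85-fold lower (95% interval 4.7 to 5.01) in A375+DMSO than in A375P, so A375R was 2.04-fold higher (95% interval 1.97 to 2.11) than A375+DMSO. Its direction in A375R thus depended on which library was the control. In A375+VEM it was 1.5-fold lower (95% interval 1.43 to 1.57) than in A375+DMSO, at the threshold without passing it, and 7.28-fold lower (95% interval 7.01 to 7.55) than in A375P. ABL2 held 78.7% in A375P and 41.1% in A375+DMSO, and 56.1% in A375R and 33.1% in A375+VEM of the summed ABL1 and ABL2 TPM.

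The letters TGANTCA, the motif of AP-1 factors, occurred in 4 of the 58 promoters, those of ABL2, ACTN4, ARPC5 and BAIAP2, and in 7.71% of all, on either strand. The window of ABL2 is shown because this gene had the lowest ratio of the 35 in A375+VEM against A375P, with the motif in capitals, beginning at base -182.
ABL2 (chr1:179143232-179143278, minus strand): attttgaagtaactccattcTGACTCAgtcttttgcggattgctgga
ACTN4 and ARPC5, which also carry these letters, were past 1.5-fold higher in A375+VEM than in A375P, and BAIAP2 was 1.36-fold higher, within it. Against A375+DMSO, A375+VEM was within 1.5-fold for each, 1.36-fold lower for ACTN4, 1.3-fold higher for ARPC5 and 1.49-fold higher for BAIAP2. No match of the 3 motifs overlapped a match of another.

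The choice of control changed most results of the resistant strain. A375R against A375+DMSO had 4 of 35 genes past 1.5-fold, where 20.5% of all genes were past it. ABLIM3, ABI1 and ABL2 were higher, beside 10.5% of all genes, and AFAP1L2 was lower, beside 9.99%. Of the 18 genes past 1.5-fold against A375P, only ABLIM3 was past it in the same direction against A375+DMSO, while ABL2 and AFAP1L2 were past it in the opposite direction. How many of all genes kept their direction was not counted, so this number has no background beside it. The drug-free libraries differed by a similar number of genes as the resistant pair, with 18 of 35 past 1.5-fold in A375+DMSO against A375P, 11 higher and 7 lower, beside 45.7% of all genes with 26.8% higher and 18.9% lower. At 2-fold 12 were past it, 7 higher and 5 lower, beside 26% of all genes with 16.6% higher and 9.36% lower. In this design the lack of solvent and the single library of A375P cannot be told apart.

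Of the 14 genes past 1.5-fold in the acute pair, 8 were past it in the same direction with A375P as the control. The matching share over all genes was not counted here either. A375+VEM against A375P had 19 of 35 genes past 1.5-fold, 10 higher and 9 lower, beside 62.1% of all genes with 36.9% higher and 25.3% lower. ADD3, ARPC1B and ADD1 were higher in A375+VEM than in either library, and ACTN1, ACTN2, ABLIM1, ADD2 and BAIAP2L1 were lower than in either. ACTB, ACTG1 and AFAP1 were lower than in A375P by 1.47-fold, 1.37-fold and 1.38-fold, within the threshold. ACTR3B, AVIL and ABI2 lay between the controls or next to A375P, at log2 ratios to A375P of -0.40, -0.049 and 0.044.

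**Figure D4:**
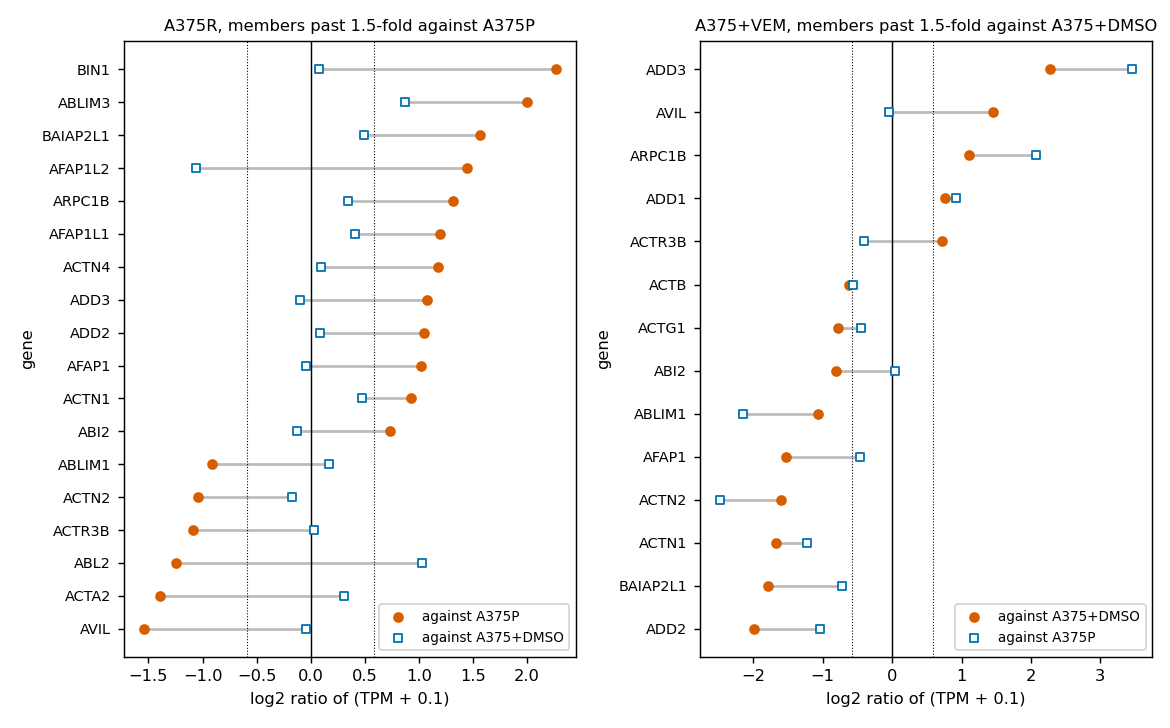
Log2 ratio of (TPM + 0.1) against each of the 2 libraries without vemurafenib, for the 18 genes past 1.5-fold in A375R against A375P (left) and the 14 in A375+VEM against A375+DMSO (right). Filled points use the control of the pair, open squares the other control, and dotted lines mark 1.5-fold. On the left most squares lie near 0 and several cross it, but only those of ABL2 and AFAP1L2 pass the opposite dotted line. On the right ADD3, ARPC1B, ADD1, ACTN1, ACTN2, ABLIM1, ADD2 and BAIAP2L1 keep both points past the line on 1 side.

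Each of the 35 genes also had a library in which it was highest. That was A375R for 13, A375+VEM for 11, A375P for 9 and A375+DMSO for 2. Over all 1817 genes at that level the shares were 20.9%, 40.1%, 26.7% and 12.3%. The genes highest in A375R included both cytoplasmic actins and both non-muscle alpha-actinins. Their margin over A375+DMSO was within 1.5-fold, at 1.11-fold for ACTB, 1.13-fold for ACTG1, 1.39-fold for ACTN1 and 1.07-fold for ACTN4. The lowest level was in A375P for 14 genes, in A375+VEM for 12, in A375+DMSO for 5 and in A375R for 4, against 37.4%, 29.6%, 14.9% and 18.2% of all genes.

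Beyond these genes, lists of nuclear actin-related proteins and of further actin regulators and linkers were read. Nuclear actin-related proteins belong to chromatin remodelling complexes, and 0 of 4 were past 1.5-fold in A375R against A375P, where 44.3% of all genes were. ACTR5 was the highest there by 1.11-fold and ACTL6A the lowest by 1.3-fold. With acute drug 1 of the 4 was higher and 2 lower than with DMSO, beside 26.5% and 19.7% of all genes. ACTR8 was 1.68-fold higher (95% interval 1.52 to 1.85) and ACTR5 2.01-fold lower (95% interval 1.62 to 2.5). In A375+DMSO against A375P ACTR6 had the highest ratio, 1.13-fold, and ACTL6A was 1.56-fold lower (95% interval 1.41 to 1.72). Of 21 further regulators and linkers, 13 were compared in A375R against A375P, with 2 higher and 3 lower, beside 26.8% and 17.5% of all genes. In A375+VEM against A375+DMSO 3 of 14 were higher and 5 lower, beside 26.5% and 19.7%. In A375+DMSO against A375P 5 of 14 were higher and 3 lower, beside 26.8% and 18.9%. ANLN had the lowest and ANK3 the highest ratio after acute drug. ANLN, the anillin of the cytokinetic ring, had 52 in A375P and 78.4 in A375+DMSO, and 95.6 in A375R and 6.97 in A375+VEM, and it was 11.3-fold lower (95% interval 9.92 to 12.8) in A375+VEM than in A375+DMSO. ANK3, the ankyrin that ties membrane proteins to spectrin, had 5.34 in A375P and 8.52 in A375+DMSO, and 6.41 in A375R and 82.8 in A375+VEM, and it was 9.72-fold higher (95% interval 9.18 to 10.3). AIF1L was 2.2-fold higher (95% interval 1.96 to 2.48) in A375R and 2.45-fold higher (95% interval 2.18 to 2.75) in A375+DMSO than in A375P, and ARC was 2.59-fold lower (95% interval 2.13 to 3.16) and 6.09-fold lower (95% interval 4.64 to 8.11). Against A375+DMSO, A375R was 1.11-fold lower (95% interval 1.01 to 1.22) for AIF1L, within 1.5-fold, and 2.35-fold higher (95% interval 1.73 to 3.24) for ARC, so the direction of ARC in A375R depended on the control.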

How the data were processed

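Total RNA of 4 A375 conditions was sequenced, with 1 library each. The authors deposited a table of whole-number read counts and TPM per gene, with gene lengths and positions. Per the labels the build is hg19, and the submitters' processing notes name HISAT2, TopHat2, Bowtie2 and HISAT without a role or order. The counting program, annotation and strand setting are not given in the sources used here. The deposited TPM equals the count over gene length times 1 constant per library. The table covers the alphabetical beginning of the gene list, and 1 incomplete row was left out.

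Libraries were compared by the ratio of (TPM + 0.1) over all genes that reached 1 TPM in either library, at 1.5-fold, and each of the 39 genes is named. Some of the other lists are not reported here. Of each other list reported the gene with the highest and that with the lowest ratio per pair was named, at a TPM of at least 10 in 1 library. Intervals are exact (95%), and the floor is 3 reads. The genes and lists were chosen with earlier results of these data known. Adding reads of ARPC4-TTLL3 was chosen after seeing the data. The steps were tested on simulated data. Promoters came from RefSeq, and shared stretches of 50 bases from GENCODE transcripts (GRCh38). Alternatives were pseudocounts of 0.01 and 1, no filter, a minimum of 5 TPM, a median ratio scaled to 1, 2-fold, and the other control. Work was done in Python 3.11.15 with pandas 2.3.3, scipy 1.17.1, numpy 2.4.6 and matplotlib 3.10.9.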

Additional observations from a re-analysis of the deposited data

Results flagged for a closer look

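For 7 of the 35 genes the log2 ratio was past 1.5-fold in opposite directions in the resistant and the acute pair. Whether the pairs differ was not tested, since each pair has 1 library per condition. Over all genes compared in both pairs 12.1% were past 1.5-fold with opposite signs and 10.1% with the same sign, and of the 35 genes 4 had the same sign. The pairs have no library in common.

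The alpha-actinin gene ACTN1 was at 0.92 in A375R against A375P and -1.68 in A375+VEM against A375+DMSO. Its ratio was 0.48 in A375R against A375+DMSO and -1.23 in A375+VEM against A375P. AFAP1 was at 1.02 in the resistant pair and -1.53 in the acute pair, and with the controls exchanged at -0.044 and -0.46. ADD2, an adducin, was at 1.04 and -1.99, and with the controls exchanged at 0.087 and -1.03.

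BAIAP2L1, a membrane-bending adaptor, was at 1.57 and -1.79, and with the controls exchanged at 0.49 and -0.72. ABI2, an adaptor of the WAVE complex, was at 0.73 and -0.81, and with the controls exchanged at -0.12 and 0.044. The signs were the other way round for ACTR3B, the Arp3 paralogue, at -1.08 and 0.72, and with the controls exchanged at 0.035 and -0.40. AVIL, which encodes advillin, was at -1.54 and 1.45, and with the controls exchanged at -0.042 and -0.049. In A375+DMSO against A375P, which shares A375P with the resistant pair, the ratios were -1.12 for ACTR3B and -1.50 for AVIL and, for the other genes, between 0.45 for ACTN1 and 1.07 for BAIAP2L1. Exchanging the controls left only ACTN1, ADD2 and BAIAP2L1 past 1.5-fold in A375+VEM, and none of the 7 in A375R. Of all genes 62.1% were past it in A375+VEM against A375P and 20.5% in A375R against A375+DMSO. The 7 genes were picked by their ratios to the original controls, and how many such genes of the whole table stayed past it was not counted.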

How the results depend on the processing

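No paired analysis was possible because there was 1 library per condition, and for the same reason no library could be left out. With A375+DMSO as the control of A375R, 4 genes were past 1.5-fold, 3 higher and 1 lower, in place of 18, 12 and 6. With A375P as the control of A375+VEM, 10 were higher in place of 5. The background moved too, to 20.5% and 62.1%. Among the genes past 1.5-fold in the resistant pair, the log2 ratios that changed sign with the other control were those of ACTA2 at 0.31, ACTR3B at 0.035, ABI2 at -0.12, ABLIM1 at 0.17, AFAP1 at -0.044, AFAP1L2 at -1.06, ADD3 at -0.10 and ABL2 at 1.03. Among those past it in the acute pair they were ACTR3B at -0.40, ABI2 at 0.044 and AVIL at -0.049. Genes within 1.5-fold also changed sign, such as ACTA2, from 0.50 to -1.20, and BIN1, from -0.15 to 2.04, in A375+VEM. The cause was not tested. Without the filter on low values 9 genes of the acute pair were higher, since the 4 genes with few reads then entered. At 2-fold the pair had 9 genes past the threshold, 3 of them higher, beside 26.4% and 15.3% of all genes, and A375+DMSO against A375P had 7 higher in place of 11, beside 16.6%. The other counts stayed within 1.5 times under these alternatives, and under both pseudocounts, a TPM of at least 5 and the scaling to a median ratio of 1. That scaling shifted log2 ratios by 0.10 in the resistant pair, 0.11 in the acute pair and 0.093 between the drug-free libraries, and reversed no gene past 1.5-fold. Low counts limit ACTN2, AVIL, BIN1 and ABLIM3, whose intervals are wide.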
